A study of Mus musculus with 12 samples.

Results

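At 3 h after lipopolysaccharide (LPS), RelA and Ikaros were each mapped in wild-type mouse macrophages, and 2601 regions carried both factors, 2288 RelA alone and 4475 Ikaros alone. RelA is a subunit of NF-kB that carries a transactivation domain, enters the nucleus when Toll-like receptor 4 senses LPS, and binds kB sites at inflammatory genes. Ikaros, the product of Ikzf1, is a zinc finger protein best known from lymphocyte development. It recruits chromatin remodelling complexes and can repress or activate the genes it binds. LPS comes from the cell envelope of Gram-negative bacteria and is used to mimic infection.

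The regions were taken from 1 RelA library and 1 Ikaros library of bone-marrow-derived macrophages of C57BL/6J wild-type mice, both labelled as 3 h of LPS. Each list holds hotspots, which are stretches of the genome enriched for sequence tags in that library. Hotspots that met a hotspot of input DNA from untreated wild-type cells by 1 bp or more were dropped, 45 of 5017 for RelA and 52 of 7161 for Ikaros. This left 4972 RelA and 7109 Ikaros hotspots, 12081 of the 49690 hotspots that remained over all 9 immunoprecipitated libraries of the series. The series has 12 samples, of which 10 had a file used here. The other 7 immunoprecipitated libraries, used below as outside lists, were wild-type RelA and wild-type Ikaros at 0 and 8 h of LPS and RelA of littermate control mice at 0, 3 and 8 h, also C57BL/6J.

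With 1 library a side there was no spread between replicates, so no p-value is given. Each range in brackets after a share is an exact Clopper-Pearson 95% interval for counting error only, and hotspots that lie side by side are not independent of each other. The number of reads behind each library is unknown, and regions below the authors' threshold were not listed, so a factor that is not listed at a place cannot be called absent there. The lowest z score, the authors' measure of a region's enrichment, was 8.88 in the RelA list and 9.82 in the Ikaros list. Factor was confounded with antibody (a rabbit antibody on protein A beads for RelA, a goat antibody on protein G beads for Ikaros) and with shearing, which took 20 min for RelA and 17 min for Ikaros. Positions are on mm9 as deposited. The gene table at hand is of another build, so regions are given by position and no gene was assigned.

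For both factors the share of hotspots that met the other rose with strength. Of 4972 RelA hotspots, 2684 overlapped an Ikaros hotspot by 1 bp or more, 54.0% (52.6 to 55.4). Of 7109 Ikaros hotspots, 2634 overlapped RelA, 37.1% (35.9 to 38.2). Strength is the z score, ranked within each list and divided into 5 equal classes. In the weakest quintile, 36.0% (33.0 to 39.1) of RelA hotspots overlapped Ikaros and 22.0% (19.9 to 24.3) of Ikaros hotspots overlapped RelA. In the strongest quintile they came to 77.5% (74.7 to 80) for RelA and 55.7% (53.0 to 58.3) for Ikaros. Both shares of the whole lists count nearly the same pairs, 2684 RelA with 2634 Ikaros hotspots, so the gap between 54.0% and 37.1% is that of the list lengths and does not compare the factors.

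**Figure D1:**
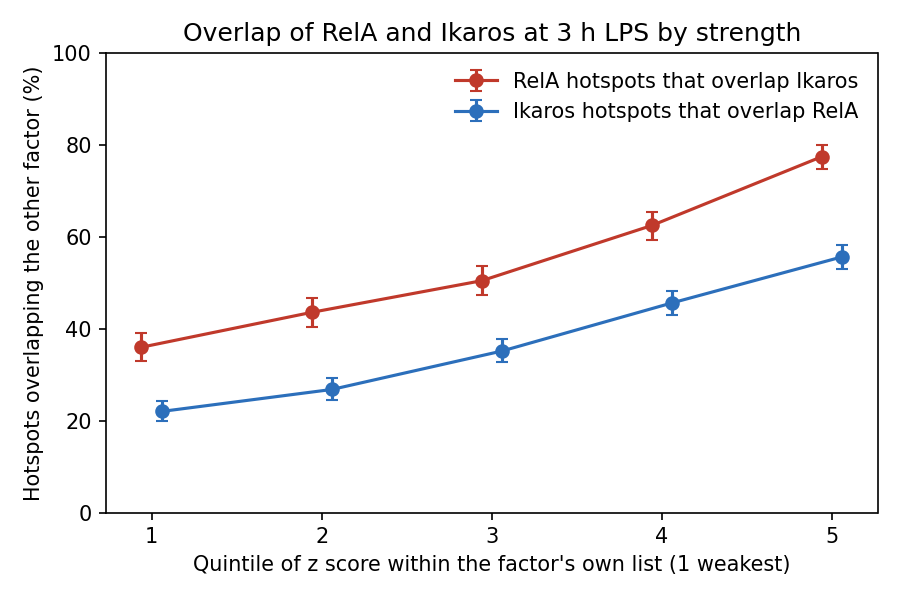
The y axis gives the percentage of 3 h hotspots that overlapped the other factor by 1 bp or more, the x axis the quintile of z score within the factor's own list, and bars the exact 95% interval. RelA points run from 36.0% to 77.5% and Ikaros points from 22.0% to 55.7%, each higher than the one before.

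Joined into regions, the hotspots gave 9364 places, of which 27.8% were shared, 24.4% held RelA only and 47.8% Ikaros only. Nearly all shared regions were simple: 2522 of 2601 held 1 hotspot of each factor. In 47 a single Ikaros hotspot met 2 or more RelA hotspots, in 24 a single RelA hotspot met 2 or more of Ikaros, and 8 held 2 or more of each. At the edge of the overlap rule, the pair with the smallest overlap met by 1 bp on chromosome X (RelA 18737349 to 18737600, z 10.0, and Ikaros 18737599 to 18737882, z 9.93). The closest pair that did not meet lay 2 bp apart on chromosome 6 (RelA 18798043 to 18798359, z 9.56, and Ikaros 18798361 to 18798703, z 12.2). Few of the unshared hotspots were such near misses. Of RelA-only hotspots, 4.68% lay within 500 bp of an Ikaros hotspot, and the median gap was 33177 bp over the 2287 on a chromosome with Ikaros. Of Ikaros-only hotspots, 3.37% lay within 500 bp of RelA, and the median gap was 53510 bp.

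Shared hotspots were stronger in both lists. RelA hotspots with Ikaros had a median z of 14.8 and a median highest tag density of 20.9, against 11.4 and 16.6 for RelA-only hotspots. Ikaros hotspots with RelA had a median z of 15.8 and a median highest density of 24.7, against 12.7 and 20.9 for Ikaros-only hotspots. The unit of the density is not stated. Shared regions also stood closer to other regions: 39.9% (38.1 to 41.9) had a further region of any kind within 5 kb, against 27.1% (25.2 to 28.9) of RelA-only and 29.3% (27.9 to 30.6) of Ikaros-only regions.

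At shared regions the strength of RelA told little about the strength of Ikaros. Over the 2601 regions the Spearman correlation of the z scores was 0.24, and it was 0.34 by highest density. Both values are descriptions across regions of 2 libraries. At 788 shared regions also listed for littermate RelA at 3 h, wild-type RelA at 8 h and Ikaros at 8 h, the z scores of RelA and Ikaros at 3 h correlated with rho 0.28. Over those same regions RelA at 3 h correlated with littermate RelA at 3 h with rho 0.65 and with wild-type RelA at 8 h with rho 0.69. Ikaros at 3 h correlated with Ikaros at 8 h with rho 0.74, so a factor's order followed itself in another library more closely than it followed the other factor. Across factor and time the values were lower still, 0.15 for RelA at 3 h with Ikaros at 8 h and 0.12 for Ikaros at 3 h with RelA at 8 h.

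To say which factor dominated, each shared region was given the percentile of its strongest RelA hotspot in the RelA list and of its strongest Ikaros hotspot in the Ikaros list, where 100 is strongest. A region was called RelA-led where the RelA percentile was higher by 25 points or more, Ikaros-led where it was lower by 25 or more, and otherwise balanced. By this rule 576 regions were RelA-led, 22.1% of the shared regions, 1396 were balanced, 53.7%, and 629 were Ikaros-led, 24.2%. Which factor led more often depended on the setting, with 581 RelA-led and 445 Ikaros-led regions with Ikaros held to its 4972 strongest hotspots, and 402 of each with a reciprocal overlap of 50%. The median difference, RelA minus Ikaros, was -0.85 points, with quartiles at -24.2 and 20.8. RelA-led regions had a median RelA z of 20.8 and a median Ikaros z of 11.7. Ikaros-led regions had a median RelA z of 10.4 and a median Ikaros z of 19.6. The most filled cell of the 5 by 5 grid of quintiles was the strongest of both, with 323 regions. The opposite corners held 54 regions in the strongest RelA and weakest Ikaros quintile, and 67 in the weakest RelA and strongest Ikaros quintile. The weakest quintile of both held 57. Shared hotspots of each list were more frequent in stronger quintiles, so these raw counts alone do not show in which corner an excess lay. A list's percentile depends on how weak a hotspot it holds, so the lead ranks a factor within its own list and does not compare amounts of protein.

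**Figure D2:**
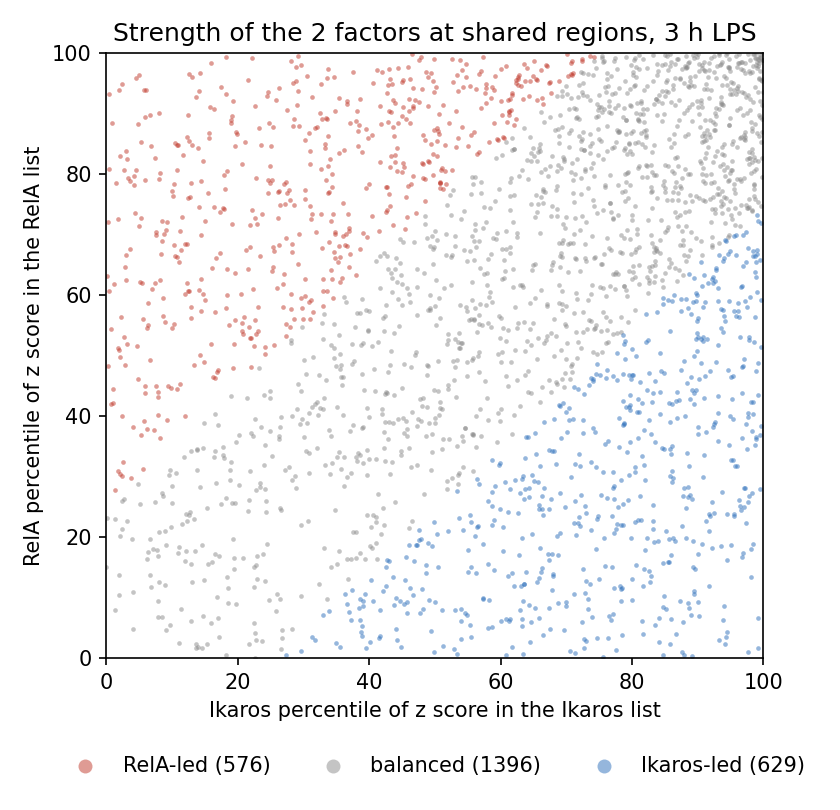
Each of the 2601 points is a shared region, with the percentile of Ikaros z score on the x axis and of RelA z score on the y axis, coloured by the lead called at 25 points. Points fill the whole square, with a denser upper right corner, where 323 regions lie in the strongest quintile of both lists.

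The regions strongest for both factors were listed again in the later libraries of both. The first outside chromosome 18, at chr2:167602536-167603772, had a RelA z of 110 and an Ikaros z of 73.4, with midpoints 1.00 bp apart. It was listed in every other library except littermate RelA at 0 h. The next, at chr17:26671788-26672874, had 79.5 for RelA and 60.3 for Ikaros with midpoints 12.5 bp apart, and neither factor was listed there at 0 h. At chr2:153023763-153024999 the values were 65.1 for RelA and 61.1 for Ikaros, and at chr2:11451463-11452413 they were 58.1 and 52.7. Ikaros was listed at 0 h at both of these, with a z of 13.9 at the first and 12.9 at the second. The remaining one, at chr7:53965595-53971622, spanned 6027 bp, with 2 RelA hotspots meeting 1 Ikaros hotspot (RelA z 59.4, Ikaros z 59.9), and was not listed for either factor at 0 h. All 5 were listed for RelA in wild-type and littermate cells at 8 h, for littermate RelA at 3 h and for Ikaros at 8 h. Of all shared RelA hotspots in the strongest quintile, these lists held 77.0%, 53.8%, 81.7% and 93.2%.

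The regions with the largest leads of RelA have, by the rule that picked them, a high RelA and a low Ikaros percentile. The first, at chr7:53974822-53975657, had a RelA z of 33.4 over 835 bp and an Ikaros z of 9.84 over 274 bp. It lies beside the broad chromosome 7 region above, which was balanced. Next came chr13:63214123-63214989, with a RelA z of 36.8 and an Ikaros z of 9.93, and chr11:68271283-68272162, with 34.6 for RelA and 9.91 for Ikaros. At chr11:83550388-83551328 RelA had 39.4 and Ikaros 10.0, and at chr5:93522764-93523587 RelA had 40.7 and Ikaros 10.1. In each, the Ikaros hotspot lay wholly inside the RelA hotspot. All 5 were listed for littermate RelA at 3 h and none for Ikaros at 0 h, and 4 were listed for wild-type RelA at 8 h. The exception was the chromosome 5 region, which of the outside lists was only in that of littermate RelA at 3 h, with a z of 9.40. Of all RelA-led regions, 62.0% were listed for littermate RelA at 3 h, 0.521% for Ikaros at 0 h and 57.8% for wild-type RelA at 8 h.

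The regions with the largest leads of Ikaros have, by the same rule, a high Ikaros and a low RelA percentile. The first, at chr4:33368933-33369923, had a RelA z of 8.97 over 251 bp and an Ikaros z of 54.0 over 990 bp, with midpoints 341.5 bp apart. Next came chr7:31738124-31738973, with a RelA z of 8.94 and an Ikaros z of 39.0, and chr9:106280110-106280932, with 9.21 for RelA and 52.9 for Ikaros. At chr9:21935318-21936109 RelA had 9.0 and Ikaros 29.6, and at chr10:75299956-75300764 RelA had 9.06 and Ikaros 29.9. All 5 were listed for Ikaros at 8 h and 4 for Ikaros at 0 h, against 91.7% and 17.6% of all Ikaros-led regions. The chromosome 4 region and the one at 106280110 were also listed for littermate RelA at 3 h and for wild-type RelA at 8 h, and the remaining 3 were in no other RelA list. Littermate RelA at 3 h listed 18.6% of all Ikaros-led regions and wild-type RelA at 8 h 11.9%.

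Width followed strength closely. Within a list, z score and width correlated with rho 0.92 for RelA and 0.90 for Ikaros, and no hotspot was narrower than 251 bp. Shared RelA hotspots had a median width of 613 bp, against 460 bp for RelA-only hotspots. Shared Ikaros hotspots had the same median, 613 bp, against 488 bp for Ikaros-only hotspots. Within quintiles of z score the gap shrank but kept its sign in all 10 comparisons. In the weakest quintile the medians were 285 bp for shared and 278 bp for RelA-only hotspots, and 302 bp for shared and 284 bp for Ikaros-only hotspots. In the strongest quintile they were 831 bp for shared and 749 bp for RelA-only hotspots, and 804 bp for shared and 710 bp for Ikaros-only hotspots. A wider hotspot has more room to meet another, and the part of this in the gap was not tested. At shared regions neither factor was the wider as a rule: the RelA hotspot was wider in 1285 regions, 49.4%, and the Ikaros hotspot in 1313, 50.5%. The leading factor had the wider hotspot in 97.4% of RelA-led and 98.6% of Ikaros-led regions, as z score and width are tied within a list.

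**Figure D3:**
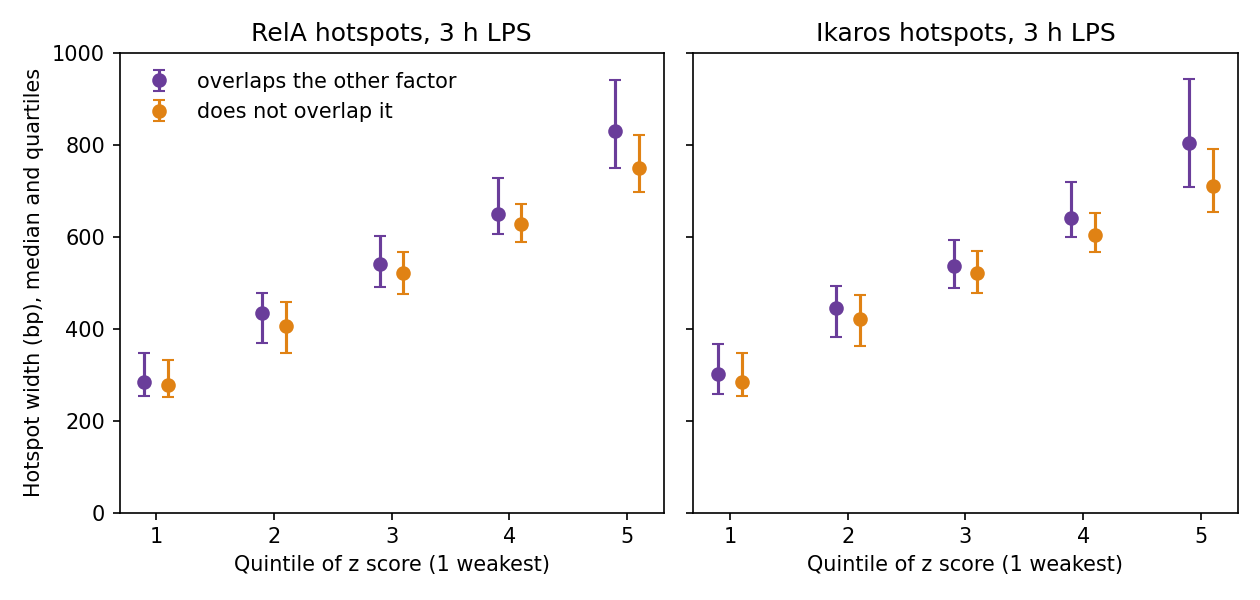
Points give the median hotspot width in bp and bars the quartiles, by quintile of z score, for RelA (left) and Ikaros (right), with hotspots that overlap the other factor left of those that do not. Width climbs with z score in both lists, and the shared medians stand above the others in every quintile, by 7 bp in the weakest and 82 bp in the strongest RelA quintile.

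Very broad hotspots were shared ones. All 22 RelA hotspots of 2000 bp or more overlapped Ikaros, and 45 of the 47 Ikaros hotspots of that width overlapped RelA, against 54.0% and 37.1% of the lists. Ikaros reached the greater width, with 20 hotspots of 4000 bp or more against 4 of RelA. The widest shared region, at chr12:27125445-27141555, spanned 16110 bp. It held 11 RelA hotspots of 332 to 2596 bp, with z scores from 9.77 to 23.7, together with 2 Ikaros hotspots, the stronger of which spanned 10296 bp with a z of 65.3. This was the only shared region whose strongest RelA and strongest Ikaros hotspots did not themselves overlap. It was listed for wild-type RelA at 8 h, littermate RelA at 3 h and Ikaros at 8 h, and for no library at 0 h.

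The midpoints of the paired hotspots lay close together. Their median distance was 64.0 bp, with quartiles at 29.5 and 119.5 bp, where overlapping pairs of these widths could lie up to a median of 607.5 bp apart. Midpoints were within 50 bp of each other in 40.4% of regions, within 100 bp in 68.2% and within 200 bp in 89.0%. Of the 2522 regions with 1 hotspot each, the RelA hotspot lay wholly inside the Ikaros hotspot in 707, the Ikaros hotspot inside that of RelA in 776, and the pair was staggered in 1039. In only 57 of them did the overlap cover less than 50% of the narrower hotspot. Median distance was 60.5 bp in RelA-led, 61.0 bp in balanced and 75 bp in Ikaros-led regions. It was 78.0 bp where the weaker member of the pair was in the lowest 20 percentiles of its list and 61.0 bp where both were in the top 20. Summits were not used here, so distances are between hotspot midpoints and do not locate the bound sequence.

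**Figure D4:**
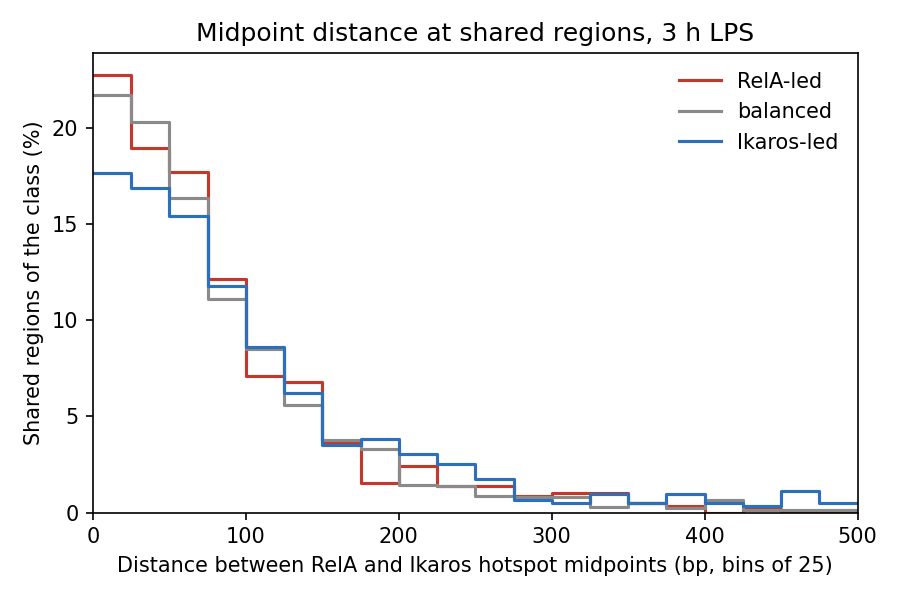
The x axis gives the distance between the midpoints of the strongest RelA and Ikaros hotspots of a shared region in bp, in bins of 25, and the y axis the percentage of regions of each lead class. All 3 classes are highest below 25 bp and fall away, with medians of 60.5 bp (RelA-led), 61.0 bp (balanced) and 75 bp (Ikaros-led).

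The libraries that played no part in the split give a second view of it. Littermate RelA at 3 h is a second RelA library labelled with the same time, from mice under another genotype label. Its file name holds another time or a second one, and the label was followed. This library listed 42.5% (40.6 to 44.4) of RelA hotspots shared with Ikaros and 25% (23.2 to 26.8) of RelA-only hotspots. It listed 43.0% (41.1 to 44.9) of Ikaros hotspots shared with RelA, but 2.48% (2.04 to 2.98) of Ikaros-only hotspots. The Ikaros-only share was 5.76% where sharing took a reciprocal overlap of 50%, which moves hotspots with a lesser overlap into that class. In the strongest quintile of Ikaros these shares were 51.7% (48.2 to 55.2) and 3.49% (2.20 to 5.24). The places without RelA in one library were thus largely unlisted in the other, including places of strong Ikaros. By lead, the littermate list held 62.0% (57.9 to 66.0) of RelA-led, 47.2% (44.6 to 49.9) of balanced and 18.6% (15.6 to 21.9) of Ikaros-led regions, an order in which RelA strength in wild type falls. The littermate lists had lower densities, with a median highest density of 4.11 at 3 h against 18.5 for wild-type RelA, and a median width of 326 bp against 538 bp, so the libraries were not alike.

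The higher share of shared RelA hotspots in the littermate list went largely with their strength. Within quintiles of RelA z score, shared minus RelA-only came to a mean of 2.86 percentage points (0.475 to 5.24 by a normal approximation), where the unmatched difference was 17.5 points. In the strongest quintile the littermate list held 81.7% (78.8 to 84.4) of shared and 75.9% (69.7 to 81.3) of RelA-only hotspots. With 20 strength classes in place of 5, chosen with the data in view, the mean was 1.51 points (-0.795 to 3.81), and within the upper 50% of each list it was 0.842 points (-2.34 to 4.02). Other settings kept the interval above 0. The mean was 4.49 points (2.10 to 6.88) with strength by highest density and 2.96 (0.50 to 5.43) with a reciprocal overlap of 50%.

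At 8 h, RelA was listed again at 36.8% (35.0 to 38.7) of shared and 24.8% (23.1 to 26.6) of RelA-only hotspots in wild-type cells. At equal RelA strength the sign turned, with a mean difference of -2.62 points (-4.92 to -0.317). The gap lay in quintiles 3 and 4. In quintile 3, 19.3% (16.0 to 23.1) of shared and 26.2% (22.3 to 30.3) of RelA-only hotspots were listed at 8 h, and in quintile 4 the shares were 35.6% (31.8 to 39.5) and 42.4% (37.3 to 47.6). The littermate 8 h list ran the same way with a mean of -2.44 points (-4.46 to -0.413). There quintile 3 gave 6.18% (4.23 to 8.65) for shared and 11% (8.34 to 14.0) for RelA-only hotspots, and quintile 4 gave 14.3% (11.7 to 17.3) and 22.5% (18.4 to 27.1). When strength was taken from the highest density instead of the z score, both intervals took in 0, at -0.969 points (-3.30 to 1.36) in wild-type and -1.12 (-3.12 to 0.875) in littermate cells. They also did with a reciprocal overlap of 50%, at -2.17 points (-4.48 to 0.153) in wild-type and -1.0 (-2.90 to 0.895) in littermate cells. With the upper 50% of each list the differences were -4.82 points (-7.90 to -1.73) in wild-type and -4.24 (-7.15 to -1.34) in littermate cells. With 20 strength classes, chosen with the data in view, they were -3.90 (-6.13 to -1.67) and -4.26 (-6.18 to -2.33). The strength of Ikaros did not order the shares listed at 8 h alike in each quintile. In quintile 3, wild-type RelA was listed at 8 h at 14.9% (11.2 to 19.3) of hotspots with Ikaros in the upper 50% of its list, 26.7% (20.5 to 33.7) of those with weaker Ikaros and 26.2% of those with none. In quintile 4 these shares rose in that order, at 33.0% (28.5 to 37.8), 40.6% (33.9 to 47.5) and 42.4%. In quintile 1 these shares were 9.33% (5.62 to 14.3), 5.45% (2.52 to 10.1) and 6.59% (4.79 to 8.81), and in quintile 2 they were 11.9%, 11.1% and 11.8%. In the littermate 8 h list, quintile 3 gave 5.08% (2.93 to 8.12) with stronger Ikaros, 8.02% (4.56 to 12.9) with weaker Ikaros and 11% with none. Quintile 4 of that list gave 13.2% (10.1 to 16.9), 16.5% (11.8 to 22.2) and 22.5%. The other quintiles did not show this order. Littermate quintile 1 gave 3.11%, 2.42% and 2.98%, and quintile 2 gave 3.56%, 2.22% and 3.57%. In quintile 5 the shares were 54.9%, 50.3% and 52.2% in the littermate list and 76.6%, 78.4% and 77.2% in wild type.

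**Figure D5:**
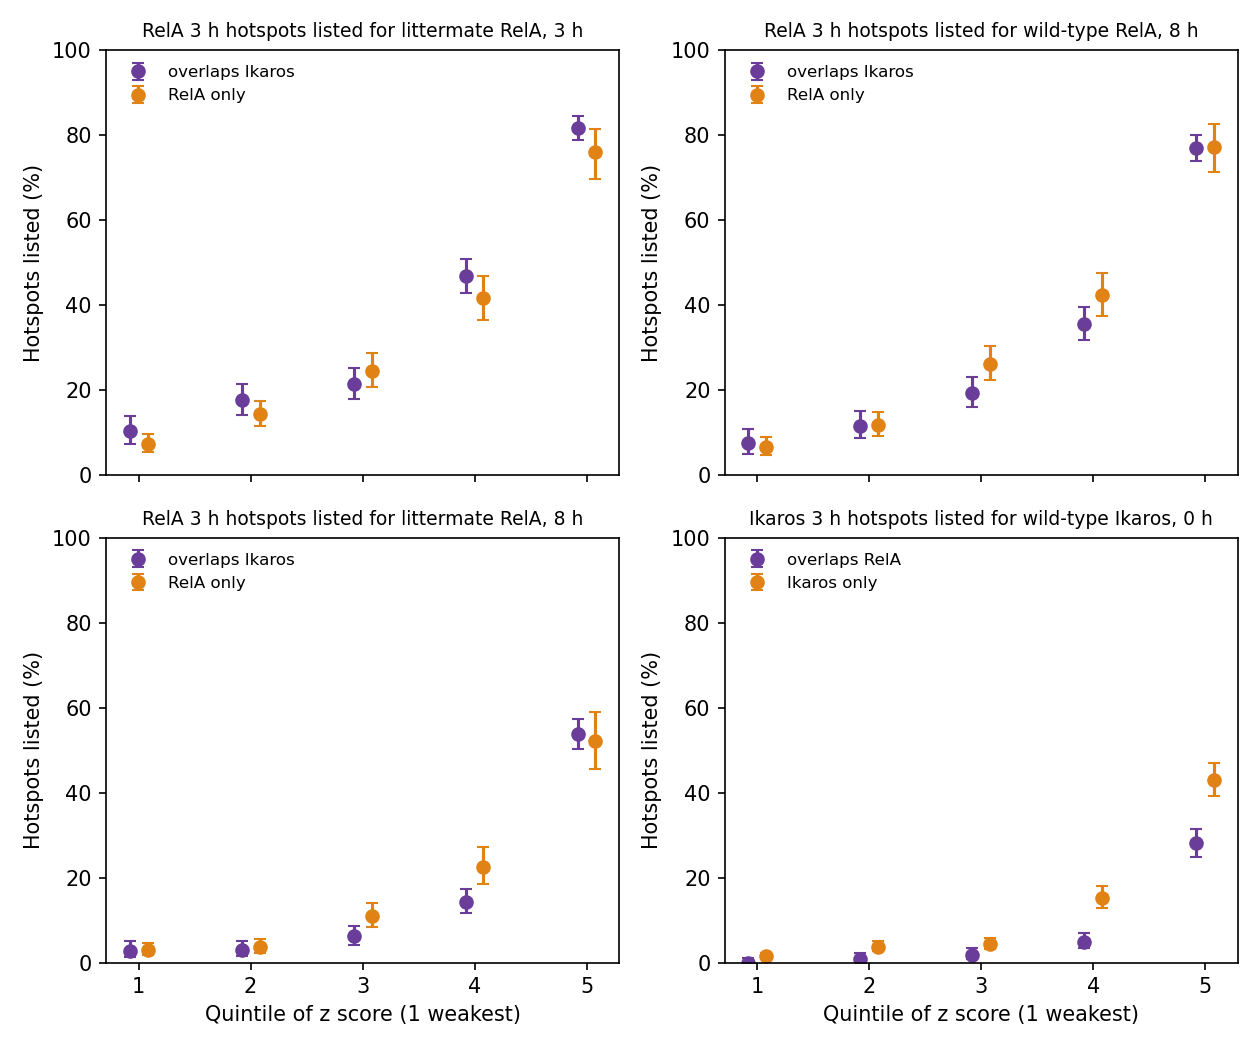
Each panel gives the percentage of 3 h hotspots also listed in an outside library, by quintile of z score, with exact 95% intervals, for hotspots that overlap the other factor and, to their right, for those that do not. RelA classes lie close together in the littermate 3 h panel, RelA-only hotspots stand higher in quintiles 3 and 4 at 8 h, and shared hotspots stand lower than Ikaros-only ones in every quintile of the 0 h Ikaros panel, at 28.1% against 43.0% in the strongest.

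At equal strength, Ikaros-only hotspots were the more often listed before LPS. Ikaros had been listed at 0 h at 10.1% (8.97 to 11.3) of shared and 10.8% (9.92 to 11.8) of Ikaros-only hotspots, but at equal Ikaros strength the shared ones were lower in 5 of 5 quintiles, by a mean of -6.44 points (-7.70 to -5.19). In the strongest quintile 28.1% (25 to 31.3) of shared and 43.0% (39.1 to 47.0) of Ikaros-only hotspots were listed at 0 h, and in quintile 4 the shares were 4.93% (3.40 to 6.89) and 15.3% (12.8 to 18). Within the strongest quintile the 0 h share was 27.2% (23.7 to 31.0) with RelA in the upper 50% of its list and 30.4% (24.2 to 37.2) with weaker RelA. By lead, Ikaros was listed at 0 h at 3 of 576 RelA-led regions, 152 of 1396 balanced and 111 of 629 Ikaros-led ones, an order in which Ikaros strength at 3 h also rises. At 8 h, Ikaros was listed at 88.7% (87.4 to 89.9) of shared and 78.3% (77.0 to 79.5) of Ikaros-only hotspots, 5.36 points (3.56 to 7.15) higher for shared ones at equal strength. Shared ones were higher in 4 of 5 quintiles, with 72.2% against 61.8% in the weakest. In the strongest they were not, at 96.2% against 97.5%. RelA-only hotspots were chosen for having no Ikaros hotspot at 3 h, and 40.6% (38.5 to 42.6) met one at 8 h, in a list of 13796 Ikaros hotspots against 7109 at 3 h. That share was 29.4% (25.8 to 33.1) in the weakest and 62.9% (56.3 to 69.3) in the strongest RelA quintile. The file names of the wild-type libraries labelled 0 and 8 h and of the littermate libraries labelled 3 and 8 h hold another time or a second one, and the labels were followed.

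Outside chromosome 18, whose regions are not named here, the strongest RelA-only hotspots were listed for RelA in every library after LPS. The first, at chr2:57149658-57150539, had a z of 66.9, with 59.4 in littermate cells at 3 h, and no Ikaros hotspot within 55524 bp at 3 h. Next came chr7:19861875-19862738 with a z of 59.9 and chr7:29227568-29228414 with 55.1, then chr8:93605681-93606415 with 52.1 and chr8:95404981-95405740 with 50.0. All 5 were listed for RelA in littermate cells at 3 and 8 h and in wild-type cells at 8 h. Of all RelA-only hotspots in the strongest quintile, these lists held 75.9%, 52.2% and 77.2%, and that of Ikaros at 8 h held 62.9%. At 8 h Ikaros was listed at 4 of the 5 named regions, with z scores from 12.4 to 35.1, and the exception was the region at 19861875.

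The strongest Ikaros-only hotspots were already listed at rest, and at 360 to 646 bp they were narrower than the 710 bp median of Ikaros-only hotspots in the strongest quintile. Densities of separate libraries are set side by side here as deposited and do not measure a change. The region at chr8:3754148-3754794 had a highest Ikaros density of 242 at 0 h, 335 at 3 h and 271 at 8 h. The region at chr10:11211582-11212153 had 256, 308 and 250 at these times, and chr3:61962875-61963440 had 242, 316 and 251. The region at chr13:113368245-113368605 had 164, 217 and 156, and chr17:71312844-71313379 had 110, 144 and 107. The 5 were chosen for meeting no wild-type RelA hotspot at 3 h, and the nearest lay between 26330 and 933528 bp away. None of the 5 was in another RelA list. Those lists held few Ikaros-only hotspots of the strongest quintile, 0.952% for wild-type RelA at 8 h and 3.49% for littermate RelA at 3 h. Among the 50 strongest Ikaros hotspots, 33 were shared, with a median width of 1236 bp, and 17 were Ikaros-only, with a median of 646 bp. In the whole strongest Ikaros quintile 55.7% were shared. Of the 33, 20 were listed for Ikaros at 0 h and 25 for littermate RelA at 3 h. Of the 17, all were listed for Ikaros at 0 h and none for littermate RelA at 3 h. In the strongest Ikaros quintile, Ikaros at 0 h listed 28.1% of shared and 43.0% of Ikaros-only hotspots. Littermate RelA at 3 h listed 51.7% of shared and only 3.49% of Ikaros-only hotspots there. Among the 50 strongest RelA hotspots 47 were shared and 3 were RelA-only, where 77.5% of the strongest RelA quintile was shared. All 50 were listed for littermate RelA at 3 h, against 81.7% of shared and 75.9% of RelA-only hotspots in that quintile. The 5 regions lay 997269 bp or more from an input hotspot, though the strongest Ikaros hotspot of all, with a density of 5277, had been dropped because it met input.

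The X chromosome had the lowest overlap of any chromosome with more than 1 hotspot. There 36.4% (27.4 to 46.1) of 110 RelA hotspots met Ikaros, and 28.0% (20.8 to 36.1) of 143 Ikaros hotspots met RelA. X hotspots were also weaker, with a median z of 10.8 for RelA and 12.3 for Ikaros, against 12.9 and 13.6 over the lists. In the weakest RelA quintile 17.9% (7.54 to 33.5) met Ikaros on X and 36.8% (33.7 to 39.9) on autosomes, and in the strongest 81.2% (54.4 to 96.0), 13 of 16, did on X and 77.4% (74.7 to 80) on autosomes. In RelA quintiles 2, 3 and 4 the shares on X were 26.9%, 31.2% and 61.5%, against 44.0%, 50.8% and 62.5% on autosomes. In the Ikaros list the weakest quintile gave 22.2% (10.1 to 39.2) on X and 22.0% (19.8 to 24.3) on autosomes. Ikaros quintiles 2, 3 and 4 gave 23.1%, 31.2% and 33.3% on X, against 26.9%, 35.3% and 45.8% on autosomes. The strongest Ikaros quintile gave 38.9% (17.3 to 64.3), 7 of 18, on X and 55.9% (53.2 to 58.5) on autosomes. Quintiles on X held 13 to 39 hotspots, so their intervals were wide. Autosomes ranged from 46.6% to 61.3% for RelA, the highest being chromosome 11, and from 33.6% to 40.5% for Ikaros.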

How the data were processed

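RelA, Ikaros and input DNA of mouse bone-marrow-derived macrophages were sequenced single-end with 51 bp reads, per the labels' protocols. The submitters' processing notes name mm9 and CASAVA. Which aligner and hotspot caller were used, and with what threshold, is not given in the sources used here. It is also not stated whether a start counts from 0 or 1. The hotspot lists the authors deposited give the highest and mean tag density of each region, a signal of unstated scale. They also deposited a z score and a p-value, per the file headers. The p-value was not used.

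Every list was cleared of hotspots that met untreated wild-type input by at least 1 bp. Overlaps of 1 bp or more joined hotspots into regions. Ranks, percentiles and quintiles used z scores within each list. Shares carry exact Clopper-Pearson 95% intervals. Strength-matched differences are means over 5 quintiles. Named regions were the 5 strongest, or those with the largest lead, of each class, and the widest, outside chromosome 18. Members, lists and rules were chosen with earlier results of these data known. The lead is defined by percentile ranks of the z scores. Tools were Python 3.11.15, numpy 2.4.6, pandas 2.3.3, scipy 1.17.1 and matplotlib 3.10.9. On simulated lists of 2000 regions, all 600 planted overlaps were found, as by bedtools 2.31.1. Sequences were not analysed here because no genome of this build was at hand.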

Additional observations from a re-analysis of the deposited data

How the results depend on the processing

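Over 27 results, 72 of 117 alternatives stayed within the 95% interval of the value as reported, or within 1.5 times a count, 45 moved, and no correlation or matched difference changed sign. The order of the RelA-led and Ikaros-led counts turned with equal list lengths and was a tie with reciprocal overlap. The 2 alternatives with a z floor of 10 and 20 strength classes were chosen after the data were seen. No paired analysis was possible because each side has 1 unnumbered library, so none could be left out either. With reciprocal overlap of at least 50%, 42.1% of RelA hotspots met Ikaros and 29.4% of Ikaros hotspots met RelA, rho was 0.38, RelA-led and Ikaros-led regions numbered 402 each, the median RelA width of shared hotspots was 630 bp and the median midpoint distance 56.0 bp. The littermate 3 h list then held 45.6% of shared RelA hotspots and 5.76% of Ikaros-only ones, RelA at 8 h 39.5% of shared RelA hotspots, and Ikaros at 8 h 49.7% of RelA-only ones. By this rule the RelA-only and Ikaros-only classes also take in hotspots that met the other factor with a lesser overlap. With equal list lengths the overlap was 44.5% for RelA and 43.3% for Ikaros, Ikaros-only regions numbered 2820, 581 shared regions were RelA-led and 445 Ikaros-led, and median widths were 626 bp (shared RelA), 473 bp (RelA only), 650 bp (shared Ikaros) and 572 bp (Ikaros only). With the upper 50% of each list the overlap was 46.7% for RelA and 32.2% for Ikaros. There were then 1325 RelA-only, 2411 Ikaros-only and 1139 shared regions, of which 276 were RelA-led, 552 balanced and 311 Ikaros-led, with rho 0.18 and a median midpoint distance of 57.5 bp. Median widths were then 744 bp (shared RelA), 643 bp (RelA only), 718 bp (shared Ikaros) and 629 bp (Ikaros only). RelA-only hotspots were listed at 28.2% for littermate RelA at 3 h, 29.4% for RelA at 8 h and 34.3% for Ikaros at 8 h, shared Ikaros hotspots at 8.14% for Ikaros at 0 h, and Ikaros-only ones at 1.70% for littermate RelA at 3 h. With each region's strongest hotspots chosen, as well as ranked, by highest density rho was 0.35, and the matched difference for Ikaros at 8 h was 7.25 points. A lead of 10 points gave 944 RelA-led, 640 balanced and 1017 Ikaros-led regions, and one of 40 points 323 RelA-led and 361 Ikaros-led. With z scores of 10 or more the overlap was 57.6% for RelA and 32.8% for Ikaros. The cause of these shifts was not tested. Under every alternative run, RelA-only and Ikaros-only hotspots had the lower median width, and the matched difference for Ikaros at 0 h ran from -7.62 to -5.68 points. Depth is unknown, so the weakest enrichment each library could show is too.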
